A study of Mus musculus with 24 samples.

Results

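Untreated cells of 1CF10, a clone of the mouse ovarian cancer line ID8 with a CRISPR knockout of Ifnar1, were set against untreated WT cells, the untransfected ID8 line with intact Ifnar1. The comparison used 6 libraries of the 24 in the series, 3 of untreated 1CF10 and 3 of untreated WT. These libraries were taken by their labels, but the comparison was chosen with earlier results of these data known. It covered the 11698 genes that were abundant enough to test of the 24614 in the count table. The other lines were 2CD7, a second Ifnar1 knockout clone, and EV, Ifnar1 WT cells given an empty CRISPR vector, and each of the 4 lines was also profiled after 3 h with interferon beta (IFN beta) at 10000 IU/ml. All lines, WT included, carry a knockout of Trp53, a tumour suppressor gene, and of Brca2, a DNA repair gene. Per the labels, each group has 3 technical replicates from 1 date, so the p-values measure technical spread alone. 1CF10 is 1 clone, and in a contrast with untransfected cells the Ifnar1 edit, the transfection and the choice of a clone cannot be told apart.

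Ifnar1 encodes a chain of the receptor for type I interferons, a family of secreted antiviral proteins. Receptor signalling assembles a complex with STAT2 and IRF9 that binds interferon response elements in promoters and switches on antiviral genes, and cells that make small amounts of interferon can keep these genes at a low tonic level without any added ligand. ID8 cells derive from mouse ovarian surface epithelium, a layer related to the mesothelium. Their identity was checked with marker lists. Of 15 mesothelial and surface epithelial markers, 8 were abundant enough to test, whereas 1 of 22 leukocyte markers, 1 of 11 endothelial markers and 2 of 12 fibroblast and smooth muscle markers were. Counts are of unique molecular identifiers (UMIs), each of which stands for 1 captured RNA molecule. The leukocyte list summed to 15.5 to 20.7 CPM in 1CF10 libraries and 16.8 to 18.3 CPM in WT libraries (counts per 1000000 in the library, here without scaling), with Cd79a, Itgam, Itgax, Csf1r and S100a8 at 0 UMIs in all 6 libraries. The fibroblast list summed to 137 to 195 CPM in 1CF10 and 82.3 to 91.1 CPM in WT. Its member Col1a1, described below, made up most of this sum and was called higher in 1CF10 (log2 fold change over WT 1.03). Its members Pdgfra, Pdgfrb, Col1a2 and Myh11 were at 0 UMIs. In RNA pooled from a whole well, fewer cells of a type and less RNA per cell cannot be told apart.

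The 1CF10 libraries held 2309498, 2799092 and 3097331 UMIs and the WT libraries 2236097, 1972192 and 2908144. All CPM below are scaled by library size and TMM factor, and log2 fold changes are 1CF10 over WT, given ± SE from edgeR. The edited gene, Ifnar1 (GRCm38 chromosome 16, 91485238 to 91507441, plus strand), had 11, 6.01 and 9.21 CPM in 1CF10 libraries, against 9, 16.8 and 8.97 CPM in WT libraries, a log2 fold change of -0.37 ± 0.26 with edgeR adjusted p = 0.353. The groups overlapped, and because the tags were primed at the poly(A) tail they do not check the edit. Ifnar2, the partner chain, had a log2 fold change of -0.08 ± 0.21 (edgeR adjusted p = 0.84). One WT library stood apart in interferon-stimulated genes: the 56 tested antiviral effectors summed to 984.8, 890.6 and 974.2 CPM in 1CF10 libraries and to 1114, 1793 and 1273 CPM in WT libraries 1, 2 and 3. All 3 WT libraries lay above all 3 1CF10 libraries, and WT library 2 lay well above the other two. EV also had 1 high library among its 1486, 1469 and 1922 CPM, while 2CD7 had 828.1 to 848.5 CPM. Interferon gene lists and the genes named from them are therefore also given without WT library 2.

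Many genes differed between the untreated lines, mostly by less than 2-fold. At an edgeR adjusted p below 0.05, 2247 genes (19.2%) were called, of which 958 (8.19%) were higher and 1289 (11.0%) lower in 1CF10. At least 2-fold differences were seen for 128 higher (1.09%) and 265 lower genes (2.27%), and at least 4-fold differences for 30 and 71. The median called gene was 1.39-fold higher or 1.51-fold lower. Protein-coding genes made up 901 of the higher and 1173 of the lower genes. Without WT library 3 the count of higher genes was 616, and it was up to 853 with another library left out. A filter with a minimum count of 30 left 9240 genes to test, of which 77 higher and 148 lower ones were past 2-fold.

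**Figure D1:**
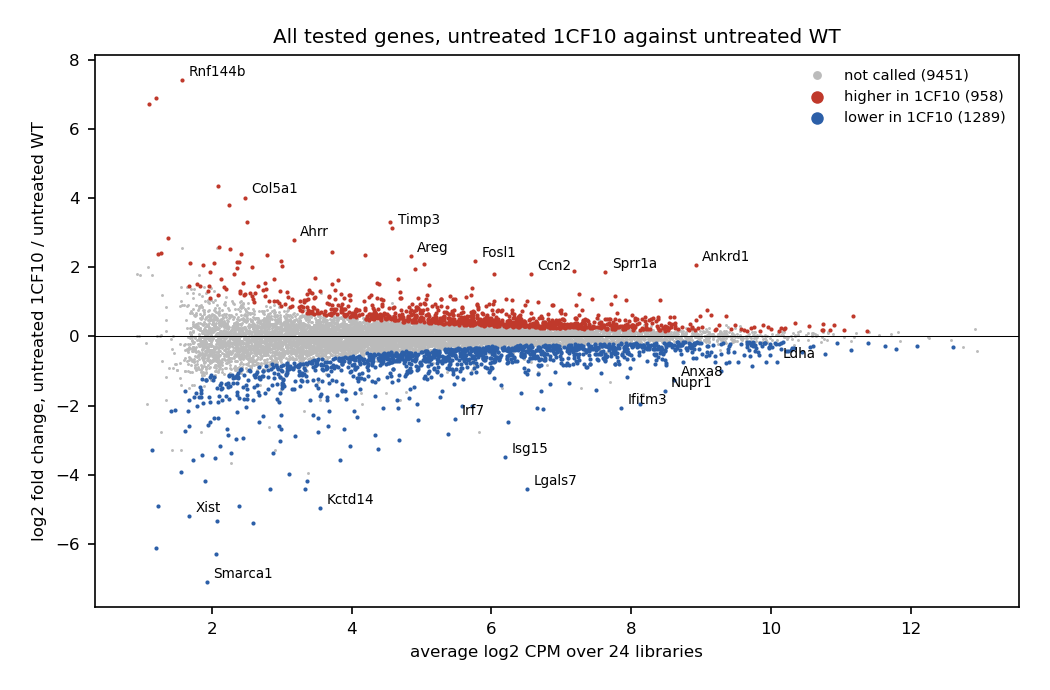
Log2 fold change of untreated 1CF10 over untreated WT (vertical axis) against average log2 CPM over 24 libraries (horizontal axis) for all 11698 tested genes, with red points for the 958 genes called higher in 1CF10, blue for the 1289 called lower and grey for the rest. The largest changes were in genes of low abundance such as Rnf144b and Smarca1, while abundant genes such as Ankrd1 and Ldha moved by smaller but well measured amounts.

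The differences were measured again in separate libraries of the same lines after IFN beta. Genes that responded to IFN beta in WT or EV were left out of this count (6.85% and 5.09% of tested genes were called as responding in these lines). Of the 840 remaining higher genes, 646 (76.9%, and 41.2% of the 1569 genes higher in treated 1CF10) were called higher again against a background of 14.6%. Of the 1095 lower genes, 813 (74.2%, and 56.1% of 1449) were called lower again against a background of 13.5%. Over all tested genes 32.0% were called between the treated lines, 14.9% higher and 17.1% lower. No gene outside the responsive ones was called in the opposite direction, and the sign was the same for 98% of the higher and 97.8% of the lower genes. Leaving out genes that changed in WT also removes genes whose difference could reverse, so few reversals could remain. With responsive genes kept, 21 of the 958 higher and 4 of the 1289 lower genes were called in the opposite direction. The sign was then the same for 94.4% and 96.2%. The treated comparison used no library of the untreated one, but both compare the same clone with the same line. A comparison of 2CD7 with EV, untreated and also without shared libraries, gave another picture: 11 of the 958 higher genes (1.15%, and 2.35% of the 468 genes higher in 2CD7) were higher in it and 184 were lower, and 71 of the 1289 lower genes (5.51%, and 12.5% of 569) were lower and 239 higher. In that comparison 8.86% of all tested genes were called, 4.00% higher and 4.86% lower. The size of the difference between 1CF10 and WT itself changed with treatment for 3.21% of genes, being more positive after IFN beta for 0.547% and more negative for 2.67%.

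**Figure D2:**
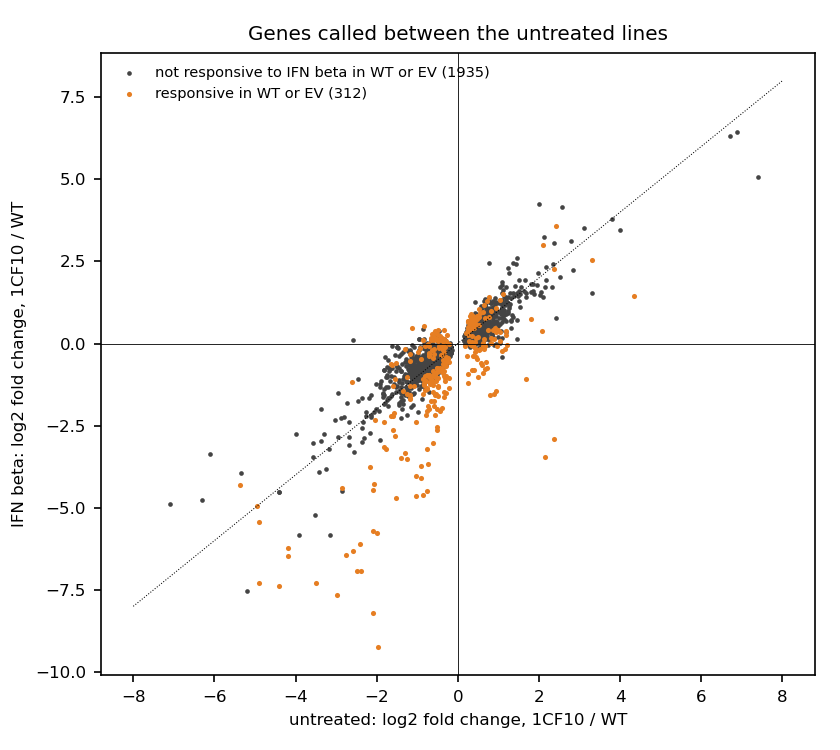
Log2 fold change of 1CF10 over WT in untreated cells (horizontal axis) and after IFN beta (vertical axis) for the 2247 genes called between the untreated lines. Dark grey points are 1935 genes without an IFN beta response in WT or EV, which lie along the dotted line of equality, and orange points are 312 responsive genes, some of which lie far below it, such as Rsad2 and Ifit3.

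Set beside the 2 other untreated lines, the called genes fell into several patterns. Of the 958 higher genes, 286 (29.9%) had all 3 1CF10 libraries above the 9 libraries of 2CD7, EV and WT, and 283 (29.5%) had all 3 WT libraries below the 9 others, with 53 genes in both groups and 442 in neither. Of the 1289 lower genes, 458 (35.5%) had 1CF10 below all other libraries, 334 (25.9%) had WT above all others, 62 had both and 559 neither. Over all tested genes 1CF10 lay above the 9 others in 3.52% and below them in 4.93%, and WT lay below the 9 others in 3.25% and above them in 3.91%. The calls used the 1CF10 and WT libraries, so these counts are a description.

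Among the genes with the largest rises, some were counted only in 1CF10 or nearly so. Rnf144b, a ubiquitin ligase gene (GRCm38 chromosome 13, 47122656 to 47247991, plus strand), had 12, 22 and 35 UMIs in 1CF10 libraries and 0 in all WT libraries, which is at least 19.9-fold higher, taking 3 UMIs over the 3 WT libraries as the floor. Xirp2, which encodes an actin-binding protein of muscle, had 16, 19 and 13 UMIs in 1CF10 and 0 in WT (at least 13.9-fold). Pappa, a protease gene whose product cleaves insulin-like growth factor binding proteins, had 19, 10 and 13 UMIs in 1CF10 and 0 in WT (at least 12.1-fold). In 2CD7 and EV the 3 genes were at 0 or low, with 1.60 CPM of Xirp2 in an EV library as the highest value.

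Surface and secreted proteins followed. Ly6c1, a GPI-anchored surface antigen gene, had 60.7, 58.7 and 53 CPM in 1CF10 libraries, against 5.85, 5.61 and 5.86 CPM in WT libraries. Its level was 2.19, 3.54 and 3.55 CPM in 2CD7 and 14, 13.2 and 13.9 CPM in EV libraries, so 1CF10 stood above the 3 other lines. The log2 fold change was 3.30 ± 0.20 (edgeR adjusted p = 7.33e-21). The family member Ly6a, known as Sca-1, was higher by a UMI ratio of 23.1-fold (95% counting interval 7.63 to 115), and Ly6 genes are similar in sequence, so their single values are uncertain. Timp3 (ENSMUSG00000020044, GRCm38 chromosome 10, 86300372 to 86349506, plus strand), an inhibitor of metalloproteinases bound to the matrix, had 54.8, 51.3 and 53.6 CPM in 1CF10 libraries, against 4.95, 5.61 and 7.24 CPM in WT libraries, with 12.4, 11 and 7.5 CPM in 2CD7 and 15.2, 11.5 and 15.5 CPM in EV. All 1CF10 libraries lay above all others, and the log2 fold change was 3.12 ± 0.20 (edgeR adjusted p = 4.3e-19). Pmp22, a myelin membrane protein gene, rose by 2.53 ± 0.37, Glipr2, a Golgi membrane protein gene, by 2.57 ± 0.37, Dync1i1, a dynein chain gene, by 2.84 ± 0.59, and Chil5, a chitinase-like gene, by 2.41 ± 0.63, with edgeR adjusted p of at most 0.00339.

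Other large rises were shared with EV cells. Col5a1, a fibrillar collagen gene, had 9.76, 9.9 and 9.84 CPM in 1CF10 libraries and 14.8, 6.58 and 4.5 CPM in EV libraries, against 0.9, 0.51 and 0.345 CPM in WT libraries and 1.1, 0.393 and 0.395 CPM in 2CD7. 1CF10 and EV overlapped, and both stood above WT. Havcr2, which encodes the immune receptor TIM-3, had 10.2, 8.49 and 7.3 CPM in 1CF10, against 0.45, 1.02 and 0.345 CPM in WT, with 4.4, 6.99 and 6.95 CPM in EV. Ahrr, the repressor of the aryl hydrocarbon receptor, had 13.2, 15.2 and 10.8 CPM in 1CF10, against 1.8, 1.02 and 2.41 CPM in WT, with 18.4, 18.1 and 13.1 CPM in EV. Il24, a cytokine gene of the interleukin 10 family, was highest in 1CF10, with 8.92, 8.49 and 8.89 CPM in 1CF10, against 0.9, 1.02 and 0.69 CPM in WT libraries, and 7.59, 6.58 and 5.32 CPM in EV libraries. The log2 fold changes over WT were 4.01 ± 0.54, 3.81 ± 0.53, 2.79 ± 0.37 and 3.30 ± 0.46, with edgeR adjusted p of at most 1.03e-07. Slc14a1, a urea transporter gene, rose by 2.43 ± 0.29 and likewise had a higher mean in EV (24.5 ± 2.37 CPM, SD, n = 3) than in 1CF10 (18.3 ± 4.26 CPM).

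The largest falls included genes that were not counted in 1CF10. Smarca1 (GRCm38 chromosome X, 47809368 to 47892974, minus strand), which encodes the chromatin remodeller SNF2L, had 0 UMIs in all 1CF10 libraries, against 10, 20 and 17 in WT, at least 18.1-fold lower. Its level in 2CD7, 4.75, 4.72 and 5.13 CPM, overlapped with that of WT, 4.5, 10.2 and 5.86 CPM. Fam149a had 0 UMIs in 1CF10, against 10, 8 and 9 in WT (at least 10.4-fold lower), with 8.39, 5.76 and 8.59 CPM in EV. Sema5a, an axon guidance gene, had 0 UMIs in 1CF10 and in EV, against 5, 4 and 15 in WT (at least 9.22-fold lower). Xist, the noncoding RNA that coats the inactive X chromosome in female cells, had 0, 2 and 0 UMIs in 1CF10, against 22, 15 and 38 in WT, lower by a ratio of 43.2-fold (95% counting interval 11.6 to 364). It was at 0 in all libraries of 2CD7 and EV, so WT was the line that stood apart.

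Several falls were measured at higher counts. Lgals7 (ENSMUSG00000053522, GRCm38 chromosome 7, 28863853 to 28866284, plus strand), which encodes the epithelial lectin galectin-7, had 6.79, 6.01 and 6.67 CPM in 1CF10 libraries, against 128, 122 and 159 CPM in WT libraries, with 103, 116 and 120 CPM in 2CD7 and 58.8, 90.1 and 84.3 CPM in EV. It was lower in every 1CF10 library than in any other, with a log2 fold change of -4.40 ± 0.17 (edgeR adjusted p = 1.12e-23). Kctd14, of a family of potassium channel domain proteins, had 0, 1.06 and 1.59 CPM in 1CF10, against 27.9, 26 and 38.3 CPM in WT, with 0.799, 1.23 and 1.64 CPM in EV, where it was as low as in 1CF10. Plxna4, a semaphorin receptor gene, changed by -3.98 ± 0.40, with 0.849, 0.707 and 0.952 CPM in 1CF10 and 1.6, 2.47 and 0.818 CPM in EV, against 10.4, 13.2 and 17.6 CPM in WT. Pimreg, a mitotic gene, averaged 0.459 ± 0.544 CPM in 1CF10 and 19.7 ± 1.76 CPM in EV, against 10.8 ± 3.47 CPM in WT (SD, n = 3), and changed by -4.41 ± 0.47. Fxyd3, a regulator of the sodium pump, was lower by a UMI ratio of 55.3-fold (95% counting interval 9.47 to 2230). Among abundant genes, Nupr1, a stress-induced chromatin protein gene, had 160, 152 and 190 CPM in 1CF10, against 507, 478 and 519 CPM in WT (-1.58 ± 0.13), and Anxa8, an annexin gene, had 187, 190 and 199 CPM in 1CF10, against 464, 451 and 462 CPM in WT (-1.26 ± 0.07). The groups did not overlap for either gene.

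Interferon-stimulated genes were lower in untreated 1CF10 without any added interferon. Of 56 tested antiviral effectors 16 (28.6%, against 11.0% of all tested genes) were lower and 0 higher, with a median log2 fold change of -0.928 (-0.904 with genes at 0 UMIs set at their bound), against a median of -0.0112 over all tested genes. Of the 16, 3 lie in the chromosome stretches described at the end. Without WT library 2 the count was 9 and the median -0.558. Isg15 (ENSMUSG00000035692, GRCm38 chromosome 4, 156199424 to 156200818, minus strand), a ubiquitin-like antiviral protein gene, had 1.27, 0.354 and 2.22 CPM in 1CF10 libraries, against 7.2, 33.1 and 8.97 CPM in WT libraries, with 2.56, 2.36 and 1.97 CPM in 2CD7 and 12, 10.3 and 32.3 CPM in EV. Every 1CF10 and 2CD7 library lay below every WT and EV library. For Isg15 the log2 fold change was -3.49 ± 0.81 (edgeR adjusted p = 0.00496), and it was -2.59 without WT library 2 (edgeR adjusted p = 0.0167). Ifitm3, which encodes a membrane protein that blocks virus entry, had 27.2, 38.2 and 34.9 CPM in 1CF10, against 88.2, 243 and 106 CPM in WT, with 41.3, 46 and 43.4 CPM in 2CD7 and 180, 201 and 260 CPM in EV. Its log2 fold change was -2.08 ± 0.33 (edgeR adjusted p = 0.000181), and -1.53 without WT library 2 (edgeR adjusted p = 7.02e-05). Rtp4, an interferon-induced chaperone gene, changed by -2.48 ± 0.65 (edgeR adjusted p = 0.0114), and by -1.65 without WT library 2 (edgeR adjusted p = 0.0454). With the spread estimated from the 6 compared libraries alone, the edgeR adjusted p was 0.11 for Isg15, 0.07 for Ifitm3 and 0.141 for Rtp4, and that of Rtp4 was 0.0646 over the 12 untreated libraries.

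The transcription factors of the pathway were lower as well. Of 32 tested signalling and sensing genes 9 were lower (28.1%, against 11.0% of all tested genes) and 1 was higher (3.12%, against 8.19%), with a median of -0.357. The count of lower genes was 6 without WT library 2, 5 without 1CF10 library 2 and 4 without 1CF10 library 3, and the median was -0.239 without WT library 2 and -0.222 without 1CF10 library 2. Irf9, the DNA-binding part of the interferon complex, had 2.97, 3.54 and 2.86 CPM in 1CF10 libraries, against 8.1, 22.4 and 10.7 CPM in WT libraries, with 2.56, 1.57 and 1.97 CPM in 2CD7 and 17.2, 14.4 and 13.9 CPM in EV. Both clones lay below both Ifnar1 WT lines, and the log2 fold change over WT was -2.07 ± 0.33 (edgeR adjusted p = 1.94e-06), or -1.60 without WT library 2. Irf7, which amplifies interferon production, had 1.27, 2.83 and 1.9 CPM in 1CF10, against 4.5, 21.4 and 8.28 CPM in WT, and changed by -2.38 ± 0.65 (edgeR adjusted p = 0.0144). Its adjusted p was 0.053 without 1CF10 library 1 and 0.0529 without 1CF10 library 3, and the log2 fold change was -1.68 without WT library 2 (edgeR adjusted p = 0.0401). Stat2 changed by -1.04 ± 0.25 (edgeR adjusted p = 0.00161), and by -0.79 without WT library 2 (edgeR adjusted p = 0.0406).

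Interferon-responsive genes of antigen presentation showed smaller falls. Of 21 tested class I and antigen processing genes 9 were lower (42.9%, against 11.0% of all tested genes) and 1 higher (4.76%, against 8.19%). Their median was -0.21, and 4 were lower without WT library 2. The median was -0.131 without WT library 2, -0.325 without 1CF10 library 3 and -0.32 without WT library 3. The higher gene, H2-M3 (0.70), lost its call without 1CF10 library 1 or 2 or without WT library 1 or 3 (edgeR adjusted p of 0.0676 to 0.163). Psme1, of the proteasome activator, changed by -0.50 ± 0.08 (edgeR adjusted p = 2.46e-06), with 153, 142 and 139 CPM in 1CF10 against 189, 235 and 191 CPM in WT, and its log2 fold change was -0.39 without WT library 2. H2-D1, a class I heavy chain gene, changed by -0.34 ± 0.09 (edgeR adjusted p = 0.00367), and by -0.24 without WT library 2 (edgeR adjusted p = 0.085). The immunoproteasome gene Psmb8 had 0 UMIs in 1CF10, against 1, 3 and 2 in WT, counts too low for a firm call: its adjusted p of 0.0266 passed 0.05 without WT library 2 (0.102) and without any of the 1CF10 libraries (0.0637 to 0.0783). Of 15 interferon-inducible GTPase genes 2 were lower, Gbp3 and Irgm1, a share of 13.3% that is near the 11.0% of all tested genes. The median was -1.04, and without WT library 2 none was (median -0.745). Gbp3 had 0, 1.06 and 0.635 CPM in 1CF10, against 1.8, 12.7 and 2.41 CPM in WT libraries, with 4, 3.29 and 8.18 CPM in EV libraries and edgeR adjusted p = 0.0313. That call was lost without WT library 2 (edgeR adjusted p = 0.131) and without any of the 1CF10 libraries (0.0533 to 0.0921), and the call of Irgm1 (edgeR adjusted p = 0.0223) was lost without the same 4 libraries (0.061 to 0.106). Further antiviral calls were as fragile. Oas1a (edgeR adjusted p = 0.0391) was lost without WT library 2, 1CF10 library 1 or 1CF10 library 3 (edgeR adjusted p of 0.119 to 0.332), and Rsad2 (edgeR adjusted p = 0.0247) without WT library 2, WT library 3, 1CF10 library 2 or 1CF10 library 3 (0.0534 to 0.0911). Ifit3 (edgeR adjusted p = 0.0476) kept its call only without WT library 1, with edgeR adjusted p of 0.0842 to 0.178 without each of the others. Members of the Gbp and Ifit families resemble each other closely, so the value of any one of them is uncertain. Lgals9, which encodes galectin-9, had 110, 131 and 122 CPM in 1CF10, against 140, 217 and 164 CPM in WT (-0.51 ± 0.11, edgeR adjusted p = 0.00135), and -0.33 without WT library 2 (edgeR adjusted p = 0.0112).

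Some promoters of lower interferon genes carried the letters of the interferon response element. The letters GAAA, any 2 bases and GAAA again (TTTC, 2 bases and TTTC on the other strand) were searched on both strands in the 250 bases before the RefSeq start (GRCm38.p6), with overlapping matches allowed. It was found in 12 of 29 promoters of lower genes on the interferon lists (41.4%), in 7.98% of genes lower at least 2-fold, in 3.85% of all lower, 1.67% of all higher and 2.58% of 8163 tested genes with a promoter, and in 3.04% of all 27025 promoters. The following 80-base stretches show 4 of the 12, each on the strand of its gene with the matches in capitals, at chr4:156200846-156200925 (minus strand), chr3:142559964-142560043 (plus), chr5:120907526-120907605 (minus) and chr19:34583355-34583434 (plus). These genes are shown because their falls were the largest of the 12, and in Isg15, Gbp3 and Oas1a the matches overlap. A match is a description of the letters and shows no binding. Interferon-list genes that were not lower were not counted apart. The share of 41.4% therefore does not set the lower members off from the rest of their lists.
Isg15: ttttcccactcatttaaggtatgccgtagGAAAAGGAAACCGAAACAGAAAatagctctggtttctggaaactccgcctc
Gbp3: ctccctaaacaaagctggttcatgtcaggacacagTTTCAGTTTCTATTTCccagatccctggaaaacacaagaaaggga
Oas1a: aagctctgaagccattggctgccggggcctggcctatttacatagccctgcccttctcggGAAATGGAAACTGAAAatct
Ifit3: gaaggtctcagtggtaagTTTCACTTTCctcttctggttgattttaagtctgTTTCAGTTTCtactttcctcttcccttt

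Genes of cholesterol and fatty acid synthesis were lower together. Of 36 tested members 22 were lower (61.1%, against 11.0% of all tested genes) and 0 higher, with a median log2 fold change of -0.531. Under every alternative tried 20 to 24 were lower. Cholesterol is made from acetyl-CoA by the mevalonate pathway, whose genes are switched on by SREBP transcription factors when membrane sterol is low. Hmgcs1 (ENSMUSG00000093930, GRCm38 chromosome 13, 119690379 to 119708260, plus strand), which encodes the synthase that makes HMG-CoA, had 84.5, 92.6 and 117 CPM in 1CF10 libraries, against 263, 317 and 293 CPM in WT libraries, with 187, 178 and 202 CPM in 2CD7 and 178, 150 and 191 CPM in EV. 1CF10 was lowest of the 4 lines with no overlap, and the log2 fold change over WT was -1.56 ± 0.12 (edgeR adjusted p = 1.25e-10). Mvd, the decarboxylase later in the pathway, had 14.9, 13.1 and 13.3 CPM in 1CF10, against 28.4, 31.1 and 38.6 CPM in WT, with 28.9, 27.5 and 28.4 CPM in 2CD7 and 24.8, 28.8 and 29 CPM in EV. 1CF10 was lowest, while WT overlapped with both other lines, and the log2 fold change over WT was -1.27 ± 0.17. Fdft1, squalene synthase, had 53.9, 51.6 and 59.4 CPM in 1CF10, against 123, 114 and 113 CPM in WT (-1.08 ± 0.10, edgeR adjusted p = 3.13e-13). Further members that fell were Nsdhl (-0.90), Cyp51 (-0.88), Idi1 (-0.72) and Sqle (-0.60), and, of fatty acid desaturation, Scd2 (-0.99), Scd1 (-0.66), Fads2 (-0.59) and Fads1 (-0.54).

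The summed level of the list was 3418, 3272 and 3481 CPM in 1CF10 libraries, against 4370, 4499 and 4381 CPM in 2CD7, 4603, 4352 and 4512 CPM in EV and 5013, 5022 and 5031 CPM in WT. 1CF10 was lowest and WT highest, with 2CD7 and EV between them and overlapping. Against EV the list had a median of -0.428 in untreated 1CF10. In treated cells 19 of the 36 members were lower and 2 higher in 1CF10 than in WT, with a median of -0.306. Of all tested genes 17.1% were lower and 14.9% higher between the treated lines. None of its tested members, lower or not, lay in the chromosome stretches described at the end.

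**Figure D3:**
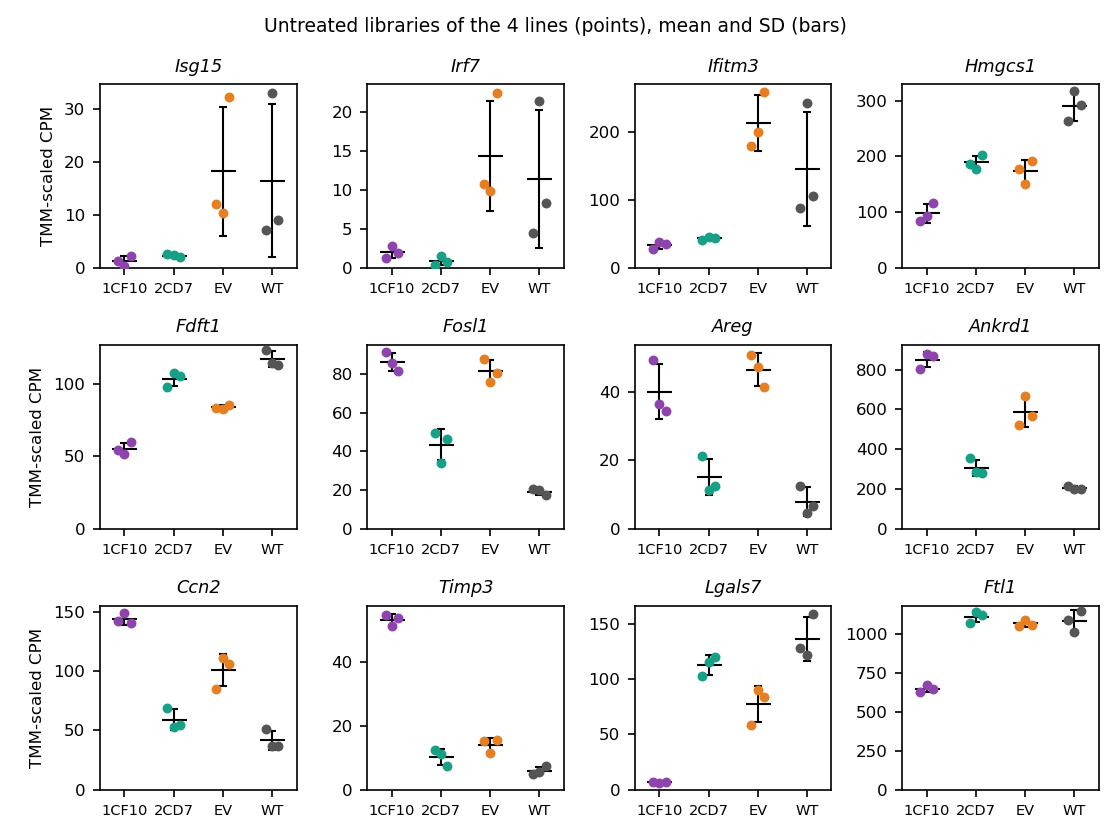
TMM-scaled CPM of 12 genes in the untreated libraries of 1CF10, 2CD7, EV and WT (points), with the mean and SD of 3 libraries (bars). Isg15, Irf7 and Ifitm3 were low in both Ifnar1 clones, Hmgcs1, Fdft1, Lgals7 and Ftl1 were lowest in 1CF10, Fosl1 and Areg were as high in EV as in 1CF10, and Ankrd1, Ccn2 and Timp3 were highest in 1CF10.

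Immediate early genes, which growth signals switch on within minutes, were higher. Of 20 tested members 14 were higher (70%, against 8.19% of all tested genes) and 0 lower, with a median of 0.804. The count was 14 under each alternative tried. After IFN beta 11 of the 20 members were higher and 2 lower in 1CF10 than in WT, with a median of 0.411. Of all tested genes 14.9% were higher and 17.1% lower between the treated lines. The AP-1 subunit gene Fosl1 (GRCm38 chromosome 19, 5447547 to 5455946, plus strand) had 91.3, 85.6 and 81.6 CPM in 1CF10 libraries, against 20.3, 19.9 and 17.2 CPM in WT libraries, with 49.3, 34.2 and 46.6 CPM in 2CD7 and 87.5, 75.7 and 80.6 CPM in EV. WT was lowest, 2CD7 lay between, and 1CF10 and EV overlapped. The log2 fold change was 2.18 ± 0.14 (edgeR adjusted p = 2.16e-19). Ier3, an immediate early gene with a role in cell survival, had 347, 357 and 320 CPM in 1CF10, against 176, 155 and 163 CPM in WT (1.05 ± 0.17, edgeR adjusted p = 0.000255). Jun (0.91), Junb (0.75), Egr1 (0.85), Myc (0.99), Srf (0.91), Klf6 (0.63), Dusp1 (0.76), Atf3 (1.16) and Ier5 (1.10) rose too. The list summed to 1865, 1837 and 1857 CPM in 1CF10, against 1124, 1142 and 1152 CPM in WT, with 1199 to 1343 CPM in 2CD7 and 1627 to 1658 CPM in EV. 1CF10 was highest of the 4 lines and WT lowest, without overlap.

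Ligands of the epidermal growth factor receptor family and feedback genes of the kinase pathway downstream were among the higher genes too. Of 39 tested receptor tyrosine kinases, ligands and feedback genes 14 were higher (35.9%, against 8.19% of all tested genes) and 6 lower (15.4%, against 11.0%). The summed level of the list went the other way, with 2430 to 2620 CPM in 1CF10 against 2780 to 2930 CPM in WT, without scaling. It was 2580 to 2680 CPM in 2CD7 and 2560 to 2750 CPM in EV. Areg, which encodes amphiregulin, had 49.2, 36.4 and 34.3 CPM in 1CF10 libraries, against 12.6, 4.59 and 6.55 CPM in WT libraries, with 21.2, 11.4 and 12.6 CPM in 2CD7 and 50.8, 47.3 and 41.3 CPM in EV. EV and 1CF10 overlapped, and the log2 fold change over WT was 2.31 ± 0.24 (edgeR adjusted p = 1.89e-09). Hbegf, heparin-binding EGF, had 104, 113 and 112 CPM in 1CF10, against 37.4, 26 and 31 CPM in WT, with 77.9, 82.7 and 86.7 CPM in EV, and a log2 fold change of 1.80 ± 0.13 (edgeR adjusted p = 1.3e-17). Ereg, epiregulin, rose by 1.28 ± 0.23. Spry1, a feedback inhibitor of the pathway, rose by 2.12 ± 0.53, and Epha2, an ephrin receptor gene, by 1.05 ± 0.11. Etv5, an ETS factor downstream of the kinases, rose by 1.14 ± 0.30 (edgeR adjusted p = 0.00363), but by 0.84 without 1CF10 library 3 (edgeR adjusted p = 0.0808). Lower members included Efnb1 (-1.05), Igfbp7 (-0.75), Igfbp4 (-0.74), Igfbp6 (-0.68) and Kitl (-0.68), which encode an ephrin, insulin-like growth factor binding proteins and the ligand of the receptor KIT. Lif, a cytokine gene, had 15.3, 12 and 11.4 CPM in 1CF10, against 3.6, 3.06 and 2.76 CPM in WT, and rose by 2.02 ± 0.30 (edgeR adjusted p = 3.24e-07). Plk2, a kinase gene induced by serum, had 234, 240 and 261 CPM in 1CF10, against 65.3, 64.7 and 67.9 CPM in WT (1.89 ± 0.15).

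YAP is a coactivator of the TEAD transcription factors, and its activity responds to cell shape and contact. Of 21 tested targets 8 were higher (38.1%, against 8.19% of all tested genes) and 3 lower (14.3%, against 11.0%), with a median of 0.237. Ankrd1 (ENSMUSG00000024803, GRCm38 chromosome 19, 36111961 to 36120099, minus strand) had 806, 878 and 869 CPM in 1CF10 libraries, against 216, 201 and 200 CPM in WT libraries, with 354, 286 and 279 CPM in 2CD7 and 523, 667 and 567 CPM in EV. The order was 1CF10, EV, 2CD7 and WT, without overlap. Its log2 fold change over WT was 2.05 ± 0.12 (edgeR adjusted p = 2.94e-10). Ccn2, a matricellular growth factor gene, had 142, 149 and 140 CPM in 1CF10, against 50.9, 36.7 and 36.9 CPM in WT (1.80 ± 0.16), and its relative Ccn1 rose by 1.51 ± 0.19. F3, tissue factor, rose by 0.83 ± 0.20 and Amotl1, a YAP-binding scaffold gene, by 1.05 ± 0.30. Axl, a receptor kinase gene (-0.69), and Dock5 (-0.52) were among the lower. Zyx, which encodes the focal adhesion protein zyxin, had 371, 324 and 304 CPM in 1CF10, against 172, 145 and 132 CPM in WT (1.16 ± 0.08). Sprr1a, a precursor of the cornified envelope, had 353, 370 and 341 CPM in 1CF10, against 102, 90.7 and 101 CPM in WT (1.85 ± 0.08), and Prkg2, a cGMP-dependent kinase gene, had 460, 430 and 496 CPM in 1CF10, against 213, 219 and 231 CPM in WT (1.06 ± 0.11). 1CF10 lay above WT in every library for these 3 genes.

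The AP-1 motif TGACTCA, searched in the same 250 bases on both strands, was looked up after these values had been seen. It was found in 4.73% of higher, 8.24% of higher at least 2-fold, 2.71% of lower and 5.32% of genes lower at least 2-fold, against 2.99% of the 8163 tested and 4.43% of all promoters. TGACTCA on the other strand reads TGAGTCA. It was in 0 of 10 promoters of the higher immediate early genes and in 3 of 29 of the lower interferon-list genes (10.3%), Rsad2 among them. Among higher list genes it was found before Lif at chr11:4257318-4257397 (plus strand) and before Tnfaip3, a brake on NF-kB signalling that rose by 1.35 ± 0.23, at chr10:19015504-19015583 (minus strand), with the matches in capitals.
Lif: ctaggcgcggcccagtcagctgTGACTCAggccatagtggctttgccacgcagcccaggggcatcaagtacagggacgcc
Tnfaip3: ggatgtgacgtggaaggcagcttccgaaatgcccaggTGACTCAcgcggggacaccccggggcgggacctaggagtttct

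Cell cycle genes were modestly higher than in WT. Of 51 tested members 20 were higher (39.2%, against 8.19% of all tested genes) and 1, Mcm2 on chromosome 6 (-0.34), was lower. The median was 0.244, and 13 were higher without WT library 3. The list summed to 8540 to 8620 CPM in 1CF10, 8400 to 8680 in EV, 7940 to 8110 in 2CD7 and 7140 to 7390 in WT, without scaling. WT was lowest and EV overlapped with 1CF10, with a median of 0.0713 for 1CF10 over EV and 0.212 for EV over WT. Ccnd1, cyclin D1, had 670, 688 and 655 CPM in 1CF10 libraries, against 466, 454 and 398 CPM in WT libraries, with 707, 612 and 595 CPM in 2CD7 and 616, 588 and 577 CPM in EV. WT was lowest of the 4 lines, and the log2 fold change was 0.61 ± 0.07 (edgeR adjusted p = 2.85e-09). Ube2c, a ubiquitin-conjugating enzyme of mitotic exit, had 118, 144 and 121 CPM in 1CF10, against 83.3, 82.6 and 96.2 CPM in WT (0.54 ± 0.09). Plk1 (0.47), Ccna2 (0.42), Cdc20 (0.38) and Tpx2 (0.48), all of G2 and mitosis, rose as well. After IFN beta 34 of the 51 members were higher and 2 lower in 1CF10 than in WT, with a median of 0.394. Between the treated lines 14.9% of all tested genes were higher and 17.1% lower, so calls were more frequent there in general.

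**Figure D4:**
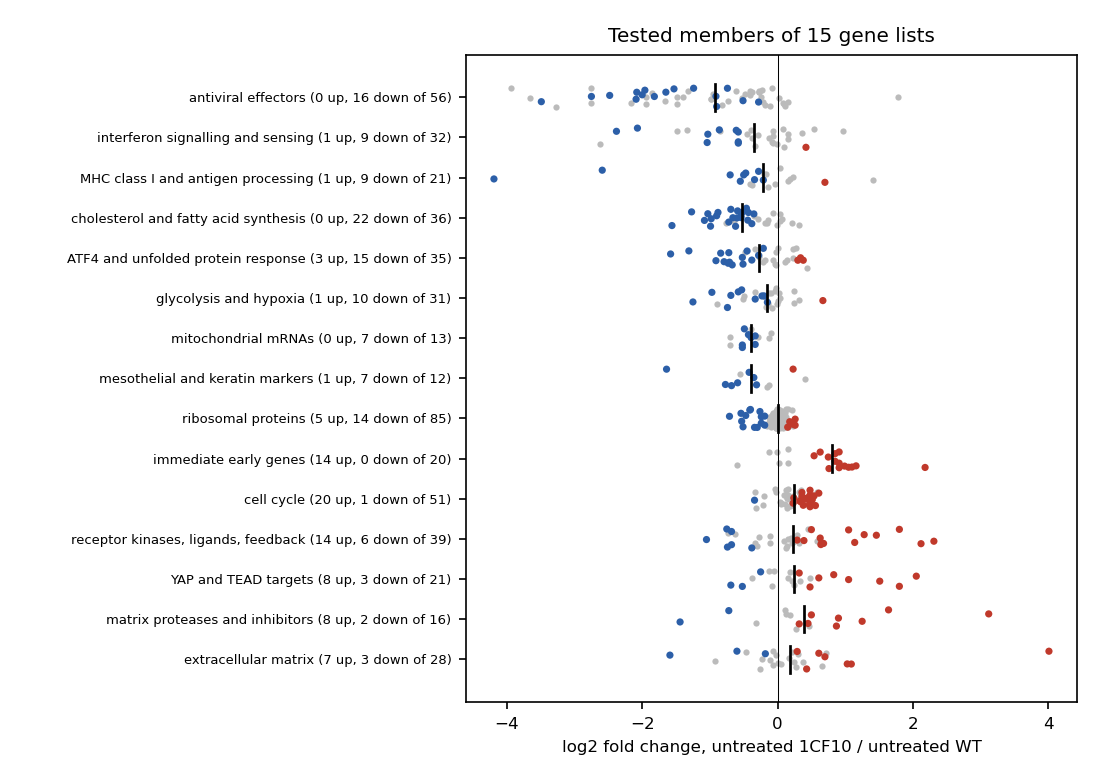
Log2 fold change of untreated 1CF10 over untreated WT for the tested members of 15 gene lists (points; red called higher, blue called lower, grey not called), with the median of each list as a black bar and its counts at the left. Antiviral and cholesterol genes lay to the left of 0 and immediate early genes to the right, while ribosomal protein genes were centred on 0 with 14 lower members.

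Matrix proteases and their inhibitors moved in both directions, with a median of 0.385. Of 16 tested members 8 were higher (50%, against 8.19% of all tested genes) and 2 lower (12.5%, against 11.0%). Beside Timp3 they included Mmp10 (0.90 ± 0.12), Timp1 (0.50 ± 0.07) and Adamts1 (0.87 ± 0.14), with Mmp11 among the lower (-0.72). Of 28 extracellular matrix genes 7 were higher (25%) and 3 lower (10.7%, near the share of all tested genes), or 1 lower without WT library 3. Fn1, fibronectin, had 48.8, 58 and 66 CPM in 1CF10 libraries, against 27.9, 28 and 26.2 CPM in WT libraries, with 23.7, 17.7 and 22.1 CPM in 2CD7 and 45.6, 37.8 and 45.8 CPM in EV (1.09 ± 0.15, edgeR adjusted p = 3.04e-08). Col1a1 had 135, 111 and 169 CPM in 1CF10, against 60.8, 69.8 and 72.8 CPM in WT, with 25.2, 21.2 and 30.4 CPM in 2CD7 and 38, 29.6 and 38.5 CPM in EV. It was highest in 1CF10 and higher in WT than in EV or 2CD7, and changed by 1.03 ± 0.12. The basement membrane collagens Col4a1 (0.70) and Col4a2 (0.61) rose, while Agrn, agrin, changed by -1.59 ± 0.28. Of 25 adhesion genes 4 were higher (16%) and 5 lower (20%). Cd44, the hyaluronan receptor, had 250, 223 and 228 CPM in 1CF10, against 116, 104 and 109 CPM in WT (1.09 ± 0.09), and Itgb1 rose by 0.44 ± 0.07. Itgb3 had 12.7, 9.9 and 10.2 CPM in 1CF10, against 25.7, 24.5 and 29 CPM in WT (-1.29 ± 0.20), and Alcam changed by -1.01 ± 0.15. The mesenchymal transcription factor gene Snai2 rose by 0.68 ± 0.13, with 51.4, 46.7 and 51.7 CPM in 1CF10, against 30.2, 33.6 and 30 CPM in WT.

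Genes that mark the mesothelial and surface epithelial origin of the cells were lower. Over all tested genes 8.19% were higher and 11.0% lower. Of 12 tested mesothelial and keratin genes 7 were lower (58.3%) and 1 higher (8.33%), with a median of -0.382. The list summed to 3050 to 3140 CPM in 1CF10, against 3660 to 3860 CPM in WT, without scaling, with 3140 to 3200 CPM in EV and 3880 to 3990 CPM in 2CD7. EV lay about as low as 1CF10, with a median of -0.436 over WT, and the median of 1CF10 over EV was 0.268. Krt8, a simple epithelial keratin, had 369, 415 and 405 CPM in 1CF10 libraries, against 787, 668 and 583 CPM in WT libraries (-0.77 ± 0.10, edgeR adjusted p = 5.76e-06). Wt1, a transcription factor of the mesothelium, had 174, 161 and 187 CPM in 1CF10, against 217, 240 and 240 CPM in WT (-0.42 ± 0.08). Upk3b had 2.12, 6.36 and 2.54 CPM in 1CF10, against 13.5, 9.68 and 11.7 CPM in WT (-1.64 ± 0.31), with 0.799, 1.65 and 2.86 CPM in EV. Gpm6a (-0.68), Gata6 (-0.59), Msln, mesothelin (-0.35), and Krt19 (-0.31) completed the lower members. Amhr2, the receptor of anti-Mullerian hormone, changed by -2.68 ± 0.46, with 0.425, 0.354 and 2.54 CPM in 1CF10, against 7.65, 8.66 and 7.59 CPM in WT. Of 20 tested Wnt pathway genes 6 were lower (30%) and 3 higher (15%). The count of lower genes was 3 without 1CF10 library 1, 2 without 1CF10 library 2 and 3 without WT library 3. Wnt6 had 87, 74.3 and 99 CPM in 1CF10, against 154, 155 and 153 CPM in WT (-0.82 ± 0.10), with 60, 67 and 68.7 CPM in EV, where it was lowest of the 4 lines. Of 27 TGF-beta and BMP genes 4 were higher (14.8%), among them Inhba, an activin chain (1.40 ± 0.14), and 4 lower (14.8%). Of these lower genes, 2 lie in the chromosome stretches described at the end. Of 8 complement and coagulation genes 2 were higher (25%), F3 and Procr, the protein C receptor gene (1.09 ± 0.15). The 4 lower ones (50%) included Clu, clusterin, at 539, 567 and 512 CPM in 1CF10, against 942, 955 and 1030 CPM in WT (-0.86 ± 0.07).

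Stress and metabolic genes moved in both directions. Over all tested genes 8.19% were higher and 11.0% lower. Of 35 genes of the amino acid stress response (ATF4) and the unfolded protein response 15 were lower (42.9%) and 3 higher (8.57%), with a median of -0.276, or -0.121 without WT library 1. The lower ones included Nupr1, described above, Ddit4, an inhibitor of mTOR signalling (-1.31 ± 0.20), and the chaperone and regulator genes Herpud1 (-0.73), Xbp1 (-0.71), Pdia6 (-0.79) and Pdia4 (-0.52). Of 31 glycolysis and hypoxia genes 10 (32.3%) were lower and 1 (3.23%), Ndrg1, was higher, by 0.67. The lower count was 6 without 1CF10 library 2, 6 without WT library 1, 5 without WT library 3 and 6 without the filter on low counts. Of 31 oxidative stress and glutathione genes 9 were lower (29%) and 5 higher (16.1%). Mgst1, a microsomal glutathione transferase, led the lower ones, with 49.7, 56.2 and 54 CPM in 1CF10 against 141, 162 and 177 CPM in WT (-1.59 ± 0.16). Gsta1 led the higher ones (0.97 ± 0.27), with Gpx1, a glutathione peroxidase gene, at 0.60 ± 0.13. Aldh1a1, a retinaldehyde dehydrogenase gene, had 9.34, 5.3 and 10.2 CPM in 1CF10, against 16.2, 19.9 and 19.3 CPM in WT (-1.15 ± 0.24), with 3.2, 0.823 and 1.64 CPM in EV. Of 13 mRNAs made in the mitochondrion 7 were lower (53.8%) and 0 higher, with a median of -0.392, and 4 were lower without 1CF10 library 1 or without WT library 3. They summed to 4796, 4899 and 5418 CPM in 1CF10, against 6861, 5905 and 7466 CPM in WT, so the groups did not overlap. mt-Nd2 had 266, 275 and 329 CPM in 1CF10, against 408, 346 and 421 CPM in WT (-0.43 ± 0.08, edgeR adjusted p = 1.45e-05).

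Other groups changed in few members. Over all tested genes 8.19% were higher and 11.0% lower. Higher members made up 13.6% of p53 targets, 5.26% of cell death genes, 9.09% of homologous recombination and repair genes and 10.5% of NF-kB targets. Lower members made up 27.3%, 21.1%, 3.03% and 0% of these lists. The higher shares of the repair genes and NF-kB targets were thus near that of all tested genes. Of 22 p53 target genes, in cells that lack Trp53, 3 were higher, led by Plk2 and Cdkn1a, a brake on the cell cycle (1.12 ± 0.19), and 6 lower, among them Gadd45a, a growth arrest gene, at -1.18 ± 0.25. Trp53 itself did not pass the test (0.33 ± 0.20, edgeR adjusted p = 0.287), and its tags do not check the knockout. Of 38 cell death genes 2 were higher, Casp4 (0.79) and Gsdme (0.67), the second with edgeR adjusted p of 0.0612 without 1CF10 library 3 and 0.0595 without WT library 1, and 8 were lower, led by Bmf, a BH3-only gene with 5.94, 1.41 and 4.76 CPM in 1CF10 against 18.5, 29 and 25.5 CPM in WT (-2.60 ± 0.31), with Bcl2l11, another of that class, at -0.87 ± 0.21. Of 33 homologous recombination and repair genes 3 were higher and 1, Parp1, was lower (-0.38 ± 0.09), and the count of higher genes was 0 without 1CF10 library 1 and 1 without WT library 3. Brca2 was among the higher, with 31.8, 30.8 and 29.2 CPM in 1CF10 against 17.1, 20.9 and 25.2 CPM in WT (0.51 ± 0.16, edgeR adjusted p = 0.0194), but its adjusted p was 0.0505 without 1CF10 library 1, 0.134 without WT library 1 and 0.0531 without WT library 2, and these tags do not check that knockout either. Of 19 NF-kB targets 2 were higher, Tnfaip3 and Ptgs2, which encodes cyclooxygenase 2 and had 87.5, 62.6 and 57.1 CPM in 1CF10, against 31.1, 34.7 and 27.9 CPM in WT (1.14 ± 0.15), with 75.5, 70.7 and 61.8 CPM in EV.

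A share of the lower genes lay together on 3 stretches of the genome, which were picked out after their values had been seen and are therefore described without a test. On chromosome 12, 130 of 417 tested genes were lower and 6 higher, with a median log2 fold change of -0.322. In the first 50 Mb of chromosome 7, 156 of 329 were lower and 5 higher, with a median of -0.49, whereas on the rest of that chromosome 29 were lower and 42 higher of 466, with a median of 0.0188. On chromosome 6 from 70 to 90 Mb, 51 of 113 were lower and 1 higher, with a median of -0.358. The 3 stretches held 859 of the tested genes (7.34%) and 337 of the lower genes (26.1%). Outside them 952 genes were lower and 946 higher, with a median of 0.0077. In 274 windows of 10 Mb, of which 220 held at least 20 tested genes, 16 of these had a median at or below -0.25, all on chromosomes 6, 7 and 12, and none had one at or above 0.25. Chromosomes 19 and 14 had milder shifts, with medians of -0.163 and -0.107. On them 84 of 424 and 56 of 403 tested genes were lower (19.8% and 13.9%, against 11.0% of all tested genes). Higher genes numbered 18 and 11 (4.25% and 2.73%, against 8.19%). The share of lower genes on chromosome 14 was thus near that of all tested genes. Over EV the medians of 1CF10 were -0.126 on chromosome 19 and 0.031 on chromosome 14, and those of EV over WT were -0.0156 and -0.104.

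**Figure D5:**
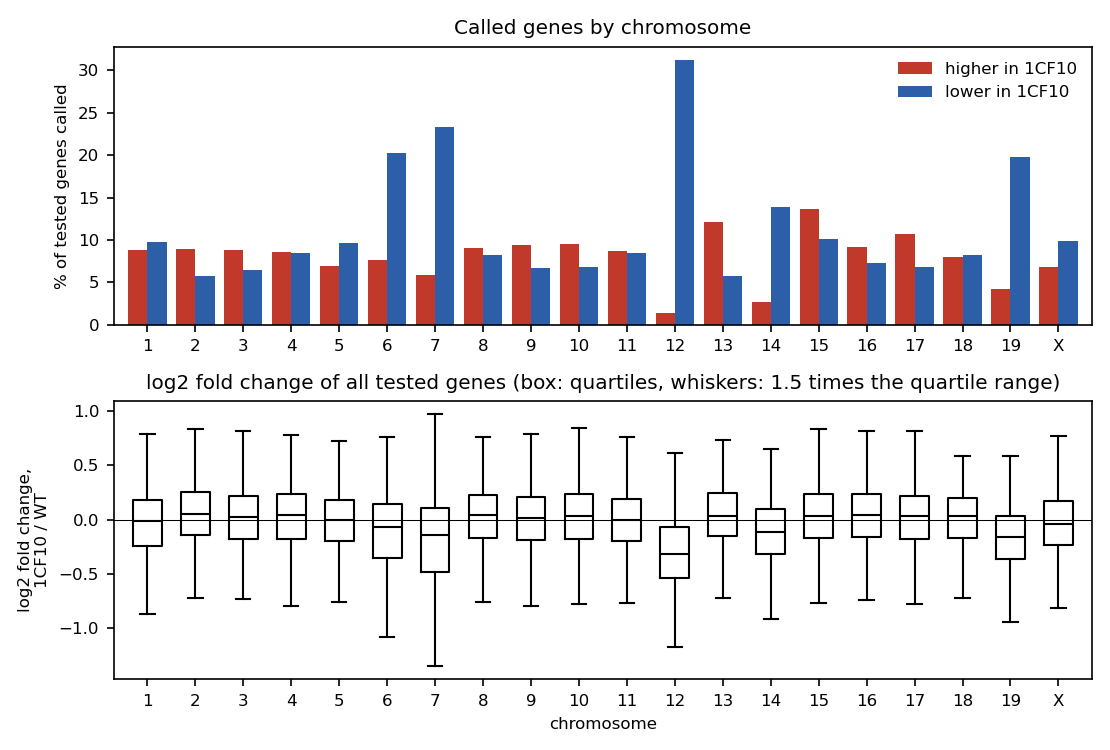
Percent of tested genes called higher (red) or lower (blue) in untreated 1CF10 than in untreated WT by chromosome (top), and the log2 fold change of all tested genes on each (bottom; boxes show quartiles and whiskers reach 1.5 times the quartile range). Chromosome 12 has the lowest median, -0.322, and 31.2% of its genes lower, and the lower quartile of chromosome 7 reaches far below that of its neighbours.

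The shift was broad within each stretch, though uneven on chromosome 12. There 81.5% of tested genes had a negative log2 fold change, but the windows at 90 to 100 Mb and 10 to 20 Mb had medians of -0.0406 and -0.127. The window at 20 to 30 Mb, which holds Rsad2, had a median of -0.293 over WT but of 0.0891 over EV, and EV over WT gave -0.237. On the first 50 Mb of chromosome 7, 88.8% of tested genes had a negative log2 fold change, with quartiles of -0.739 and -0.239, and the stretch held 2.14% to 2.16% of UMIs in 1CF10 libraries, against 2.78% to 2.84% in WT libraries, 2.83% to 2.86% in 2CD7 and 2.77% to 2.79% in EV. 1CF10 stood apart from the 3 other lines. On chromosome 12 the shares were 2.02% to 2.05% in 1CF10 and 2.42% to 2.44% in WT, with 2.42% to 2.44% in 2CD7 and 2.57% to 2.65% in EV. In treated libraries the medians of 1CF10 over WT were -0.447 on chromosome 7, -0.251 on chromosome 12 and -0.3 on chromosome 6. Untreated 2CD7 over WT gave 0.0278, -0.0303 and -0.0629. DNA copy number was not measured here, and its part in these shifts was not tested.

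Genes of these stretches include several of those named above. Ftl1, the light chain of the iron store ferritin, had 627, 671 and 647 CPM in 1CF10 libraries, against 1090, 1010 and 1150 CPM in WT libraries, with 1070, 1140 and 1120 CPM in 2CD7 and 1050, 1090 and 1060 CPM in EV (-0.75 ± 0.07, edgeR adjusted p = 7.36e-14). Ldha, lactate dehydrogenase A, had 737, 722 and 713 CPM in 1CF10, against 1260, 1190 and 1170 CPM in WT (-0.74 ± 0.06). Both lie in the first 50 Mb of chromosome 7, and both were lower in 1CF10 than in each other line. Of 85 ribosomal protein genes 14 were lower (16.5%, against 11.0% of all tested genes) and 5 higher (5.88%, against 8.19%). The higher count was 1 without 1CF10 library 2 or WT library 2 and 2 without WT library 3. The 10 tested members inside the stretches were all lower, and 4 of 75 outside were. Rps19 had 605, 588 and 596 CPM in 1CF10, against 867, 859 and 868 CPM in WT (-0.54 ± 0.06), and Rpl13a and Rpl28, also on chromosome 7, changed by -0.53 ± 0.07 and -0.51 ± 0.10. Hif1a, the hypoxia factor on chromosome 12, had 79.4, 64.4 and 77.1 CPM in 1CF10, against 107, 124 and 125 CPM in WT (-0.69 ± 0.10), and Tgfb3 there changed by -0.99 ± 0.14. Vamp5 on chromosome 6, a vesicle fusion gene, had 149, 153 and 151 CPM in 1CF10, against 334, 345 and 350 CPM in WT (-1.18 ± 0.07). Lgals7, Fxyd3 and Rsad2 also lie in these stretches, as do 4 of the 10 lower glycolysis and hypoxia genes and 5 of the 15 lower stress response genes. The log2 fold change of Lgals7, -4.40, lay far below the median of its stretch.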

How the data were processed

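Per the labels, total RNA of ID8 cells was profiled by 3′ multiplexed sequencing primed at the poly(A) tail. The authors deposited raw UMI counts per gene for the 24 libraries, whole numbers that were not normalized. Tools listed in the submitters' processing notes are cutadapt 3.0, limma 3.50.0, edgeR 3.36.0 and R in versions 3.6.2 and 4.1.2, with the build GRCm38. An aligner was not given in the sources used here. Coordinates are from GENCODE M21, promoters from RefSeq (GRCm38.p6).

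Libraries held 1972192 to 3097331 UMIs. Genes passing filterByExpr (minimum count 10, minimum total 15) were tested over all 24 libraries in a single fit of 8 group means, with 16 residual degrees of freedom, by the robust quasi-likelihood F test with TMM scaling (edgeR 4.0.16, R 4.3.3). Calls required a p below 0.05 after Benjamini-Hochberg adjustment over all tested genes, and SE is the log2 fold change over the square root of F. UMI ratios with 1 to 3 UMIs in a group carry exact 95% intervals, which, like the floor of 3 UMIs, cover counting error only.

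The comparison and gene lists were chosen with earlier results of these data known. Named genes were Ifnar1, Ifnar2, Trp53 and Brca2, the 15 largest changes each way with an average log2 CPM of at least 1, the 5 most abundant genes changed at least 2-fold each way, and up to 4 called members per list with the largest changes. Further list members were chosen after their values were seen. Some genes that this rule names are not reported here. Alternatives were RLE scaling, DESeq2 1.42.0, limma-voom (limma 3.58.1), 2 other filters on low counts, a replicate block, thinned libraries, smaller fits and leaving out each library.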

Additional observations from a re-analysis of the deposited data

Results flagged for a closer look

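Of 159 named genes, 23 had a difference between 1CF10 and WT that itself changed with IFN beta, by the edgeR test of the treated minus the untreated log2 difference over all tested genes, where 376 of 11698 genes (3.21%) passed. For 20 of the 23 the treated difference was the more negative, as it was for 312 of the 376 genes. Of the 23, 17 were lower in untreated 1CF10. Nearly all named genes were chosen because they were called in the untreated comparison, so this count reflects that choice and is a description. Antiviral and signalling genes moved most: Rsad2 by -7.27, Ifit3 by -6.12, Ccl8 by -5.59, Irf7 by -4.56, Rtp4 by -4.45, Irgm1 by -3.72, Stat2 by -2.98, Ifitm3 by -2.38, Casp4 by -2.35, Irf9 by -2.22 and Lgals9 by -2.12. H2-T23 moved by -1.30, H2-M3 by -1.27, Atf3 by -1.33, Ccn2 by -1.05, Cd47 by -0.84, Nectin2 by -0.64, Krt8 by -0.57, Cp by -0.49 and Hif1a by -0.49. Ddit4 moved the other way by 1.14, Peg3 by 0.71 and Ccnd1 by 0.35. Untreated, Casp4 and Ccl8 were higher in 1CF10, at 0.79 ± 0.22 and 2.14 ± 0.76, and after IFN beta they were lower, at -1.56 ± 0.15 and -3.44 ± 0.32. The Ccl8 value rests on 4, 7 and 6 UMIs in untreated 1CF10 and 0, 1 and 2 in untreated WT libraries, and its untreated call was lost without each library in turn except 1CF10 library 1.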

How the results depend on the processing

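No called gene among the 346 named genes and called list members changed sign under any alternative. At most 39 lost their call when the test, scaling, filter, depth or fit was changed, and 42 to 69 lost it when 1 library was left out. Leaving out single libraries gave 616 to 853 higher genes (958 with all), 961 to 1115 lower genes (1289), 117 to 131 genes higher at least 2-fold, 221 to 278 lower at least 2-fold, and 1103 to 1316 calls shared with the treated comparison (1459). The count of 616 came without WT library 3. When 1 library of a group was left out, the spread was pooled over groups. A filter with a minimum count of 30 gave 77 genes higher and 148 lower at least 2-fold (128 and 265 with the filter used), as fewer genes were tested. DESeq2 called 729 higher and 972 lower genes, and the fit of 12 untreated libraries 1105 and 1311. The calls shared with treated libraries cannot be computed in fits without treated libraries.

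Deviations from group means correlated at 0.0346 on average between libraries with the same replicate number (-0.0165 to 0.0749, 3 pairs). Between others they correlated at -0.0172 (-0.0768 to 0.028, 6 pairs), and 4 of 6 libraries were closest to their own number. The correlations were small, and 3 pairs are too few to decide whether replicate numbers pair the libraries. With the replicate block 986 genes were higher and 1315 lower, and 2232 of 2247 calls were shared. In the 3 chromosome stretches, chosen after seeing the data, the alternatives gave 98 to 132, 127 to 158 and 39 to 52 lower genes on chromosomes 12, 7 and 6.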
